A study of Drosophila melanogaster with 8 samples.

Results

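The Drosophila genes whose symbols begin with ND- encode subunits of respiratory complex I and copies of such subunits. There were 40 of them among 13945 annotated protein-coding genes on X, 2L, 2R, 3L, 3R and chromosome 4, and the binding of the chromatin regulator KDM5 over these genes was examined in the larval prothoracic gland. A gene was called bound when its FlyBase ID stood on the authors' list of KDM5 targets, and its peaks were taken from the deposited peak list. By this measure 21 of the 40 genes (52.5%) were bound, against 38.5% of all protein-coding genes. The list can give 1 peak to several genes. When each peak was given only to the overlapped gene with the nearest start, 9 of 40 (22.5%) were bound, beside 26.7% of all coding genes. The 6 copies had no peak, so these were 9 of the 34 genes other than copies, and no excess remained by this rule. Most complex I genes are short, and of the 34 that measure up to 2 kb 19 were bound, against 27.3% of all genes of that length. Of the 29 peaks over the 21 bound genes, 27 also touched a neighbouring gene, where 37.8% of all peaks over coding genes touched more than 1. By gene, every peak was shared for 19 of the 21, beside 81.8% of bound genes of up to 2 kb with a peak over the body. ND-15, which is annotated over a long span with other genes inside it, held 8 of the 29 peaks and is treated apart. Without it, a peak covered the end in 14 of 20 bound genes and the start in 4. The shares of all bound genes of up to 2 kb were 59.5% and 49.1%.

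Binding was measured by Targeted DamID (TaDa), in which a fusion of the protein with the Dam methylase marks GATC sites that it comes close to. The samples formed 2 groups of wandering larvae of the last instar, 4 expressing UAS-LT3-damkdm5 (Dam:KDM5) and 4 expressing UAS-LT3-dam (Dam alone, the control for accessible DNA). Both carried tub-Gal80[ts] and spok-Gal4 in an otherwise wild-type background, spent 5 days at 18°C and then 2 days at 29°C, which inactivates Gal80, and were collected as pools of 100 larvae per sample. DNA was taken from whole larvae, so the assignment to the prothoracic gland rests on the spok-Gal4 driver, and binding data hold no marker that could check it. The files used here hold 1 profile averaged over the 4 replicates, with no value and no depth per sample. No replicate error can therefore be given for any score, no test was made, and small differences in score cannot be set against a spread between samples.

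Complex I, or NADH:ubiquinone oxidoreductase, is the entry point of electrons into the mitochondrial respiratory chain. Its peripheral arm, which stands in the matrix, takes electrons from NADH and passes them along iron-sulfur clusters to ubiquinone. Its membrane arm pumps protons across the inner membrane. The central subunits are shared with bacteria and are split between the nuclear and the mitochondrial genome, and the others surround them and are needed for assembly and stability. KDM5 is a demethylase of lysine 4 on histone H3, a residue whose methylation marks active promoters. Roles of single subunits are given below from their human counterparts, whose names stood among the RefSeq synonyms of all 40 genes.

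The 21 bound genes held 29 peaks, and only 2 of these lay over no other protein-coding gene. The sequences at the centres of these 2 peaks are shown for that reason. Dam marks sites near the protein, so the lack of overlap does not place the binding within the gene alone. The ND-51 peak also lies close to the shared peak over its start. They are read from the RefSeq Release 6 (dm6) genome, 5′ to 3′ on the strand of the gene, with the GATC sites at which Dam acts in capitals. The ND-ACP stretch (chr3L:1330649-1330948, plus strand) runs from an intron into coding sequence, with 86 coding bases in 300. The ND-51 stretch (chr2L:6061820-6062119, minus strand) has 243 coding bases and 57 intronic ones.
ND-ACP: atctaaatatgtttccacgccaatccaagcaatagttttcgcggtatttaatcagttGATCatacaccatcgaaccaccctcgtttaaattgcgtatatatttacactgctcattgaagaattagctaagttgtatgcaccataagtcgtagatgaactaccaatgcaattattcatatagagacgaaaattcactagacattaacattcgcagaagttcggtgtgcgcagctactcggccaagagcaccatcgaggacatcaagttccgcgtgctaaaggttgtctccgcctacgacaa
ND-51: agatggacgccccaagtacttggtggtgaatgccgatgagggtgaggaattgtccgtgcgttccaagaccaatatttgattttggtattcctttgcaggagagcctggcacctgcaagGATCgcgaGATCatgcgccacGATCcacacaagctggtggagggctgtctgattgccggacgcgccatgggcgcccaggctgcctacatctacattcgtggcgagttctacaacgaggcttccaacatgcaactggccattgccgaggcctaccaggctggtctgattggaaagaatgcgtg

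In 3 divergent pairs without overlap both starts lay under 1 peak, and the sequences between their starts are shown as the places where a peak covered the start of a complex I gene. They are written on the strand of the complex I gene and end at the base before its start. In capitals are TATCGATA, the DNA replication-related element (DRE), TTACATAA, a form of the element found at nuclear respiratory genes, and GTGTGACC, the core of the promoter element Motif 1 read on the other strand. The stretch between ND-MNLL and p115 (chrX:7893799-7894030, minus strand) is 232 bases long, the stretch between ND-51 and CG13994 (chr2L:6062758-6062988, minus strand) 231 bases, and the stretch between ND-PDSW and msl-2 (chr2L:3466113-3466156, plus strand) 44 bases. No GATC lies in any of these 3 stretches.
ND-MNLL and p115: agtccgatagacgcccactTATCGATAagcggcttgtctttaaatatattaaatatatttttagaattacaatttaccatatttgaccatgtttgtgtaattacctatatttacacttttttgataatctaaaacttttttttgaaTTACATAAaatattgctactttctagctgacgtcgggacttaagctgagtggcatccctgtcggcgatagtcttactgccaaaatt
ND-51 and CG13994: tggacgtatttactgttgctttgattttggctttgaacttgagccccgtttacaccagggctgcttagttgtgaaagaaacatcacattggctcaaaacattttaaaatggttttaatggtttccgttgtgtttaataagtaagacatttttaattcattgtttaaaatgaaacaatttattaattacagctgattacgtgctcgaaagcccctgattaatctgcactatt
ND-PDSW and msl-2: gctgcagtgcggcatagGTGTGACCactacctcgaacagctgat

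For comparison, the 250 bases upstream of ND-SGDH (chr3L:12138585-12138834, minus strand) and of ND-23 (chr3R:15837118-15837367, minus strand) are shown. Both genes were bound, but their peaks began 433 bp and 668 bp downstream of these starts. The capitals mark TTATATAA, another form of the respiratory gene element, and the DRE. The ND-SGDH stretch also holds 1 GATC, left in lower case.
ND-SGDH: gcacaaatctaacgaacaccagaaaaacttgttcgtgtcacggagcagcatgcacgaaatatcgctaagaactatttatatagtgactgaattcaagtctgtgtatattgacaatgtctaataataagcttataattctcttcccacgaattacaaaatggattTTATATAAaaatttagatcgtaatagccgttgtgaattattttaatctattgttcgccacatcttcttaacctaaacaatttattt
ND-23: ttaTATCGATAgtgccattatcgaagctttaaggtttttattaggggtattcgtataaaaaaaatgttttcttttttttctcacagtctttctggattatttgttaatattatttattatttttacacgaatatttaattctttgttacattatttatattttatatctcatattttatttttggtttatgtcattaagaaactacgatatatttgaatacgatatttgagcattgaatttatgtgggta

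Among the core subunits of the peripheral arm, 4 of 7 were bound, with a median binding score of 5.21. The score is the authors' value of a peak relative to Dam alone. It carries no unit, its log base is not given in the sources used here, and over all 4931 peaks it had a median of 4.55 and ran from 1.42 to 10.65. ND-23, the counterpart of the iron-sulfur protein NDUFS8, scored 5.75. ND-30 (NDUFS3), a structural core subunit, scored 5.38, and ND-51 (NDUFV1), which binds NADH and the flavin, scored 5.04 over its start and 4.59 in a further peak inside the gene. ND-20 (NDUFS7), which carries the last iron-sulfur cluster before ubiquinone, scored 4.42. Of all peaks, 27.8% scored higher than the ND-23 peak and 52.7% higher than the ND-20 peak. Among the core genes not bound were ND-75 (NDUFS1) and ND-24 (NDUFV2), further iron-sulfur proteins of the electron path.

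Of the other subunits of the peripheral arm 5 of 8 were bound, with a median score of 4.74. ND-B14 (NDUFA6), which docks the acyl carrier protein onto the arm, scored 6.2, and ND-13B (NDUFA5) scored 6.08 in the narrowest of the 29 peaks, 194 bp wide. ND-39 (NDUFA9), a subunit of the dehydrogenase-reductase family that binds NADPH, scored 4.74. ND-13A (NDUFS6), a zinc-binding subunit, scored 4.2, and ND-B17.2 (NDUFA12) scored 3.3, below 75.2% of all peaks. ND-18 (NDUFS4), ND-B8 (NDUFA2) and ND-B14.5A (NDUFA7) were not bound.

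The membrane arm gave 11 bound genes of 17, with a median score of 4.75 and both the highest and the lowest score of the bound genes. The highest, 8.45 at ND-B18 (NDUFB7, a subunit on the intermembrane space side), was exceeded by 1.89% of all peaks. ND-15 (NDUFS5) followed with 6.88, but that peak touched none of its exons, and the only peak that did scored 3.95. Then came ND-B16.6 (NDUFA13, known in human as GRIM-19) with 5.68 and ND-ASHI (NDUFB8) with 5.44. ND-SGDH (NDUFB5) scored 4.8 and ND-MNLL (NDUFB1) 4.75. Lower values were found at ND-19 (NDUFA8) with 4.28, ND-PDSW (NDUFB10) with 4.2, ND-B12 (NDUFB3) with 3.78 and ND-42 (NDUFA10, of the nucleoside kinase family) with 3.5. ND-MWFE (NDUFA1) had the lowest, 3.28. ND-B14.7 (NDUFA11), ND-AGGG (NDUFB2), ND-B15 (NDUFB4), ND-B17 (NDUFB6), ND-B22 (NDUFB9) and ND-B14.5B (NDUFC2) were not bound. The bound share was thus 64.7% in the membrane arm, beside 57.1% of the core, 62.5% of the other peripheral genes and 38.5% of all protein-coding genes. With 17, 7 and 8 genes in these roles, the order of their shares was not taken as a difference.

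ND-ACP, the mitochondrial acyl carrier protein that serves fatty acid synthesis and is also a subunit of complex I, scored 6.66. ND-MLRQ, the counterpart of NDUFA4, which in mammals is assigned to complex IV, was not bound. The 6 copies with symbols ending in L, L1 or L2, among them ND-20L, ND-24L, ND-51L1, ND-51L2 and ND-B14.5AL, were all without a peak. Their parent genes were divided: ND-20 and ND-51 were bound, whereas ND-24 and ND-B14.5A were not. Without the copies 21 of 34 genes (61.8%) were bound. The median score of the 21 genes, 4.8, was near the 4.75 of all bound protein-coding genes.

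**Figure D1:**
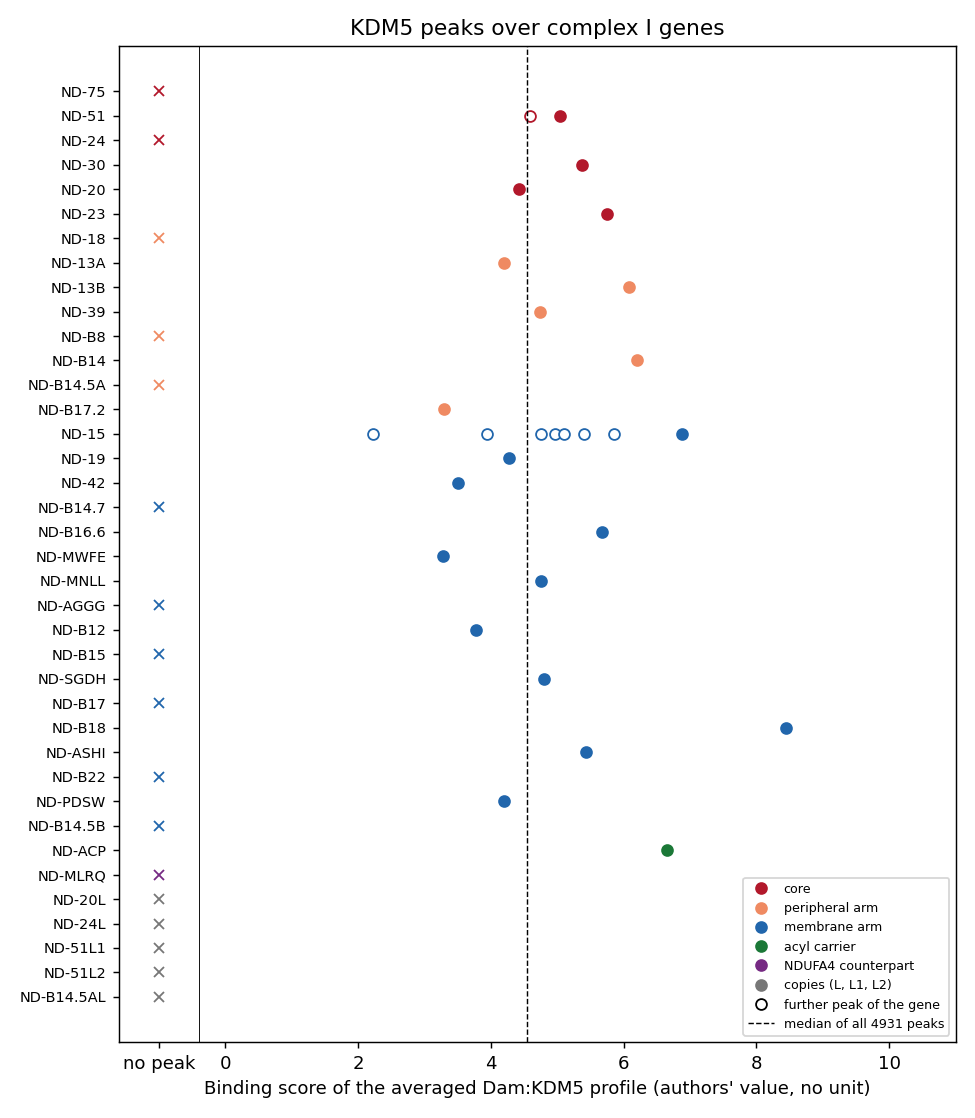
Binding score of each peak over the complex I genes described by name, ordered and coloured by role. Filled circles mark a gene's highest peak, open circles its further peaks, crosses in the left column genes with no peak, and the dashed line the median of all 4931 peaks (4.55). ND-B18 stands highest at 8.45, and ND-15 has 8 peaks between 2.23 and 6.88.

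Bound complex I genes were found on each large arm. There were 5 of 9 on 2L, 4 of 8 on 2R, 5 of 9 on 3L, 2 of 4 on 3R and 5 of 9 on X, while the bound share of all coding genes ran from 35.7% on X to 40.9% on 3R. Widths of the 29 peaks ran from 194 to 2768 bp with a median of 1338 bp, and the peaks spanned a median of 5 GATC fragments (3 to 7), against 1456 bp and 5 fragments for all peaks. Their FDR, as deposited, ran from 2.2e-25 to 0.00178.

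Most peaks at complex I genes also touched another protein-coding gene. By an overlap of 1 bp or more this held for 27 of the 29 peaks. By the same 1 bp rule 37.8% of all peaks over coding genes overlapped 2 or more genes. Another gene held at least 50% of the peak in 16 of the 29, among them peaks of ND-15 over genes inside its span. No share of all peaks is given for this 50% rule. All of a gene's peaks were shared for 19 of the 21 bound genes, ND-ACP and ND-51 being the exceptions. This was so for 56.1% of all bound genes with a peak over the body and for 81.8% of those of up to 2 kb, so most of this sharing was also found at other short genes. The neighbours numbered 34, and they were listed too, as the list is built from the genes under peaks. ND-15, which spans other genes, is described separately below, and the values from here to that point leave it out. For the other 20 genes, 14 peaks were shared with 1 neighbour and 5 with 2. The neighbour held more of the peak than the complex I gene did in 9 of these 19 shared peaks. For this count, too, no share of all shared peaks is given.

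The most frequent arrangement was a neighbour that converged on the complex I gene, with its end facing that of the complex I gene. Of the 20 genes, 12 had such a neighbour, while 39.9% of bound genes of up to 2 kb with a peak over the body did. In all of the 12 but ND-B16.6 the peak covered the end of the complex I gene. In 10 of the 12 the peak covered no outermost start of a coding gene. Among core subunits, the peak of ND-23 (3R, 15834928 to 15836449, dm6) had 402 bp in ND-23 and 1094 bp in Arpc3A, a subunit of the actin-nucleating Arp2/3 complex whose start lay 280 bp beyond the peak. The peak of ND-20 (X, 15984079 to 15986002) had 530 bp in ND-20, all exonic and none coding, and 1327 bp in Slc25A46a, of the mitochondrial carrier family, with its start 307 bp away. In ND-30 the order was the other way round, with 559 bp in ND-30, of which 484 bp were coding, and 88 bp at the far end of BtbVII, whose start was 9675 bp away.

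The highest score had this same arrangement. The ND-B18 peak (X, 15064556 to 15065739) held exonic but no coding bases of ND-B18 and began 823 bp from its start, and the start of opm was 693 bp from the other side of the peak. ND-B17.2 shared its peak with Elba2, a component of an insulator-binding complex, which held 1292 bp against 362 bp in ND-B17.2. ND-13A lay with CG4230 and ND-B14 with CG12942 under peaks of 1338 bp and 427 bp, and the annotated ends of these pairs overlapped by 118 bp and 79 bp. ND-SGDH met Atg12, a ubiquitin-like protein of autophagy, ND-42 met CG13409, and ND-B16.6 met CG3847. In these 3 the complex I gene held the larger part, with 656 bp, 913 bp and 820 bp in the peak against 338 bp, 266 bp and 92 bp. ND-19 and ND-B12 each converged on 2 genes, and their peaks did cover a neighbour's start, that of CG34214 at ND-19 and that of Rae1, an mRNA export factor, at ND-B12. The ND-B12 peak was the widest at 2768 bp and reached pirk, an inhibitor of immune signaling, with 193 bp in ND-B12 itself.

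A divergent neighbour was under the peak of 6 genes, and 4 of these had both starts covered. ND-MNLL, between p115, a tether of Golgi vesicles, and its own end, was covered over its full 746 bp by a peak of 2021 bp. CG45089 has the same annotated span and strand as ND-MNLL, so the binding of these genes cannot be told apart. The ND-ASHI peak (X, 6677543 to 6679418) covered 1576 bp of ND-ASHI and the start of Fum1, the fumarase of the citric acid cycle, and the annotated bodies of these genes overlap by 695 bp. The peak over the start of ND-51 held 182 bp of ND-51 and 683 bp of CG13994, and also 403 bp of Fbw5. The ND-PDSW peak held 745 bp of ND-PDSW and 1049 bp of msl-2, a subunit of the male dosage compensation complex. In the remaining divergent pairs the start of the complex I gene was free. ND-MWFE had a peak of 2477 bp that began 172 bp from its start and covered the starts of TppII, a peptidase, and Nrk, a receptor kinase. ND-39 lay over ZnT77C, a zinc transporter, along 2840 bp, and its peak of 1522 bp was wholly intronic for ND-39 and wholly inside both genes. ND-13B was the only one with nothing but a same-strand neighbour, CG33493, whose start lay under the peak with 27 bp of the gene.

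**Figure D2:**
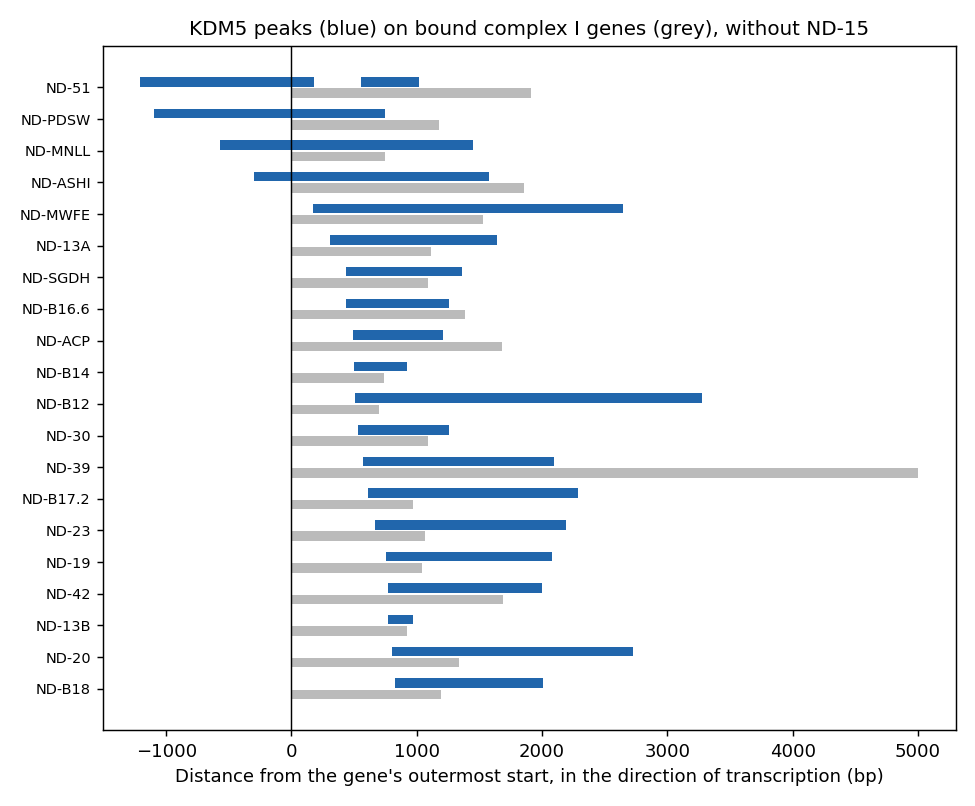
Peaks (blue) and annotated gene bodies (grey) of the 20 bound complex I genes other than ND-15, drawn to scale in bp from the outermost start in the direction of transcription, with genes ordered by where the first peak begins. The peaks of ND-51, ND-PDSW, ND-MNLL and ND-ASHI cross the start, and the other 16 genes have peaks that begin 172 to 823 bp downstream of it.

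Within the genes, the start was under a peak less often than at other short bound genes, while cover of the end was closer to theirs. The outermost annotated start was under a peak in 4 of the 20 genes, against 42.5% of all bound genes and 49.1% of bound genes of up to 2 kb. The annotated end was under a peak in 14 of the 20, against 32.6% and 59.5%. The 4 genes with a covered start were ND-51, ND-MNLL, ND-ASHI and ND-PDSW, each with a divergent neighbour. In the other 16 genes the peak began downstream of the start, from 172 bp in ND-MWFE and 307 bp in ND-13A to 806 bp in ND-20 and 823 bp in ND-B18. ND-B17.2 also had a separate peak upstream, over Drp1 and Arpc5, 604 bp from its start with a score of 4.47. Of the 21 peaks over the 20 genes, 18 held coding bases of the complex I gene, a count for which no share of all peaks is given. Of the same peaks, 13 covered no outermost start of any protein-coding gene. The latter count is no particular feature of these peaks, since it held for 68% of all peaks over coding genes. The profile of peak cover along the gene length rose from 20% of the 20 genes at the start to 55% at the midpoint and 75% at 0.8 and 0.9 of the length, and was 70% at the end. Bound genes of up to 2 kb were covered in 49.1% at the start, 61.7% at the midpoint, 60.1% at 0.9 of the length and 59.5% at the end.

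**Figure D3:**
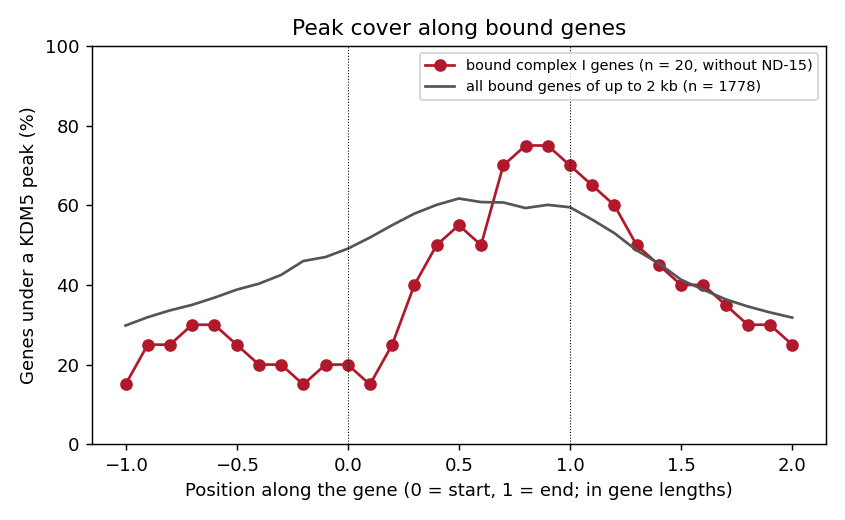
Share of genes under a peak (%) along the gene, in gene lengths from the outermost start (0) to the end (1), for the 20 bound complex I genes without ND-15 (red) and for all 1778 bound genes of up to 2 kb (grey). The red curve is below the grey one at the start (20% against 49.1%) and above it at 0.9 of the length (75% against 60.1%). Each point of the red curve stands for few genes, so 1 gene moves it by 5 percentage points.

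ND-15 carried 8 of the 29 peaks, and most of them lay far from its exons. The gene is annotated over 41305 bp on 2L (114726 to 156030, dm6) because 3 of its 10 transcripts begin at an outermost start. The other 7 begin from position 155089 on, 40363 bp downstream, and all of the coding sequence lies there, at 155572 to 155947. From that inner start to its end ND-15 is 942 bp long, a length like that of the other complex I genes. In order along the gene the peaks scored 4.75, 5.41, 5.86, 4.97, 5.11, 6.88, 2.23 and 3.95. The first 7 touched no exon of ND-15 and lay over CG13694, CG4822, CG3164, Gs1, the edge of CG31975 and ovm, CG31974, and CG11454 with CG42399. Gs1 encodes a glutamine synthetase. The last peak (153858 to 155731) held 643 exonic and 160 coding bases of ND-15 and covered its inner start, and it also held 1448 bp of Pus10, a pseudouridine synthase, with the start of that gene. Taken by its inner starts alone, ND-15 would remain bound with a score of 3.95 in place of 6.88.

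**Figure D4:**
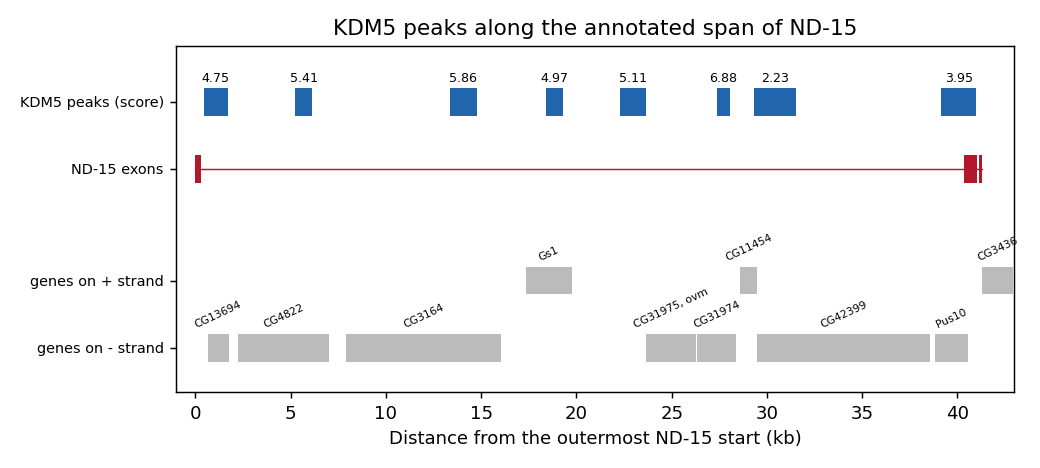
Peaks with their scores (blue), exons of ND-15 (red, joined by a line for the introns) and the other protein-coding genes of the span by strand (grey), in kb from the outermost start of ND-15. Only the last peak, scored 3.95, meets an exon, and the 6.88 peak lies over CG31974. CG31975 and ovm share the same span, and CG3436 continues beyond ND-15.

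The 19 complex I genes that were not bound ranged widely in their distance from KDM5 binding. The nearest peak lay a median of 10062 bp from the start, close to the 10103 bp of all protein-coding genes not on the list. This closeness depended on the 6 copies, whose median was 26753 bp. For the 13 unbound genes other than copies the median was 3738 bp. ND-B8 was the only one with a peak within 1 kb of its start (1 of 19, against 8.6% of all genes not listed). That peak, over CG15439 and Secp43, scored 4.31 and was 704 bp away. ND-18 followed at 1248 bp from a weak peak over pcm (2.26), and then ND-B14.5A at 2283 bp, ND-24 at 2754 bp and ND-B17 at 2971 bp from a peak over the cyclin gene CycE. ND-B22 (3185 bp), ND-B15 (3738 bp), ND-B14.7 (5616 bp) and ND-75 (6543 bp) also stood within 10 kb, and the remaining 10 genes were farther off. Of these, ND-B14.5B was at 12226 bp, and the 6 copies were at 10062 to 92150 bp. ND-AGGG at 137877 bp and ND-MLRQ at 376460 bp, on 3L, had no peak within 100 kb to either side.

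**Figure D5:**
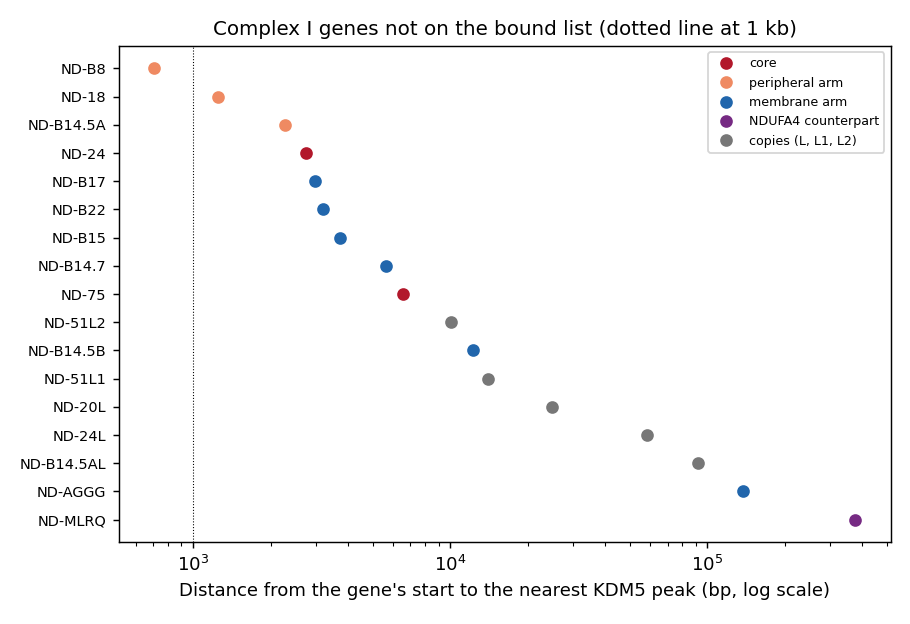
Distance in bp (log scale) from the outermost start to the nearest peak for complex I genes not on the bound list, coloured by role, with a dotted line at 1 kb. ND-B8 alone lies left of the line, at 704 bp, and ND-MLRQ lies farthest to the right, at 376460 bp.

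Bound and unbound complex I genes also had different medians in measures that bear on what DamID can detect, and the part of these measures in the calls was not tested. Bound genes had a median of 6 GATC sites within the gene and unbound genes 4, where all bound and unbound protein-coding genes had 13 and 8. By role, this order held in the other peripheral genes (5 against 2) and the membrane arm (5 against 3). It turned in the core (6.5 against 9). ND-B14.5A, ND-B15 and ND-B14.5AL held 1 site each, but ND-23 and ND-MNLL were bound with 2. The median length was 1178 bp for bound and 1008 bp for unbound genes.

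Further genes of complex I without the ND- symbol gave values of both kinds. NP15.6, the counterpart of NDUFB11 in the membrane arm, was not bound, with a peak 815 bp from its start that scored 5.89 and lay over GatA and P5cr. Of the assembly factors, CIA30 was bound with a score of 6.39 in a peak shared with Gnpnat that lay 488 bp from its start, and ECSIT with 5.18 in a peak over its start shared with disp. The 7 subunits encoded by the mitochondrial genome (mt:ND1 to mt:ND6 and mt:ND4L) were not listed, and the peak list held no peak on that genome. Among the other respiratory complexes, taken by symbol, 3 of 8 Sdh genes of complex II (37.5%), 5 of 9 UQCR- genes of complex III (55.6%), 9 of 16 COX genes of complex IV (56.2%) and 6 of 15 ATPsyn genes of complex V (40%) were bound. The median score of bound genes was 6.48, 5.3, 6.22 and 4.8 in that order, against 4.8 for complex I. Unlike the complex I genes, these symbol sets were not split into subunits, copies and assembly factors, so the shares are not of like sets.

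Promoter elements were sought in the window from 250 bp before to 50 bp after the outermost start of each gene, on both strands. None of the searched words contains another, and no matches overlapped in these genes. The DRE (TATCGATA) was found in 4 of 21 bound and 2 of 19 unbound complex I genes, and in 9.36% of all promoters and 14.7% of those of bound genes. The 6 genes were ND-23, ND-15, ND-19 and ND-MNLL, and ND-B14.5A and ND-B15 among the unbound. The ND-15 match was in the window of its outermost start, 40363 bp upstream of its first inner start. The core of Motif 1 (GGTCACAC) was in 5 of 21 and 2 of 19 genes against 7.7% of all promoters and 13.2% of bound ones. It lay in ND-13A, ND-B14, ND-MWFE, ND-PDSW and ND-ACP, and in ND-18 and ND-B17 of the unbound genes. The respiratory gene element (TTACATAA, TTACGTAA, TTATATAA or TTATGTAA) was in 4 of 21 and 1 of 19 genes, against 5.18% of all promoters and 5.41% of bound ones. The bound genes were ND-30, ND-42, ND-MNLL and ND-SGDH. The matches in ND-30, ND-42 and ND-SGDH were TTATATAA, a form made of A and T only. The E-box CACGTG occurred in ND-PDSW alone (4.2% of all promoters). CCGGAAG, the core bound by Ets family factors, was in none of the 40 windows and in 1.09% of all promoters. GATC itself was in the window of 8 of 21 bound and 6 of 19 unbound genes and in 45.2% of all promoters. These matches describe the letters in the windows and not sites in use. The windows of ND-51 and ND-ASHI, 2 of the 4 genes with a covered start, held none of the searched words.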

How the data were processed

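Per the labels, 4 Dam:KDM5 and 4 Dam samples were sequenced. The authors' reads were mapped to dm6 and turned into Dam:KDM5 profiles over Dam with damidseq_pipeline. They then averaged the replicates, called peaks with find_peaks (FDR 0.01, minimum quantile 0.9) and assigned genes with peaks2genes. For the versions of these tools, and of the aligner, the sources used here give nothing. The binding score deposited by the authors is not a count, and depth per sample is unknown, so no intervals were computed.

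Genes were matched to Ensembl release 115, 5799 list IDs by ID and 11 by name, with 5 unmatched. All 4931 peaks began and ended at GATC sites of the RefSeq Release 6 genome. A gene started at its outermost annotated transcript start, and an overlap of 1 bp made a peak shared (Python 3.11.15). Named genes were the ND- genes, some of which are counted but not reported here by name, their peak-sharing neighbours and further complex I genes. The members, lists and motifs were chosen with earlier results of these data known. Alternatives covered the definition of a bound gene, the peak threshold, the overlap, the start and the treatment of ND-15.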

Additional observations from a re-analysis of the deposited data

How the results depend on the processing

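The count of bound complex I genes depended on how peaks were given to genes. It was 21 by the list, 21 by overlap of the gene body and 22 by a peak within 1 kb of the start (37.6% of all coding genes). It was 9 when each peak was given to the 1 overlapped gene with the nearest start (22.5%, beside 26.7% of all coding genes). These were ND-51, ND-30, ND-13A, ND-39, ND-B14, ND-42, ND-B16.6, ND-MNLL and ND-ACP. They were 9 of the 34 genes other than copies, so the lower share rested largely on the 6 copies without a peak. ND-MNLL has the same start as CG45089, so its peak could go to either gene. With only peaks in the upper 50% by score, the count was 13 (32.5%, against 20.8% of all coding genes). Shared peaks fell from 27 to 23 of 29 with an overlap of at least 100 bp and to 16 when another gene had to hold at least 50% of the peak. No share of all peaks is given for either rule. The median score of bound genes was 4.8, and 5.62 over the 2 peaks that lie over no other gene. ND-15, treated apart after the data were seen, moved it to 4.78 when left out and to 4.75 by its inner starts. Genes with a covered start numbered 4, and 5 if any annotated start counted (adding ND-15, with 51.9% of all bound genes) or if a peak within 250 bp sufficed (adding ND-MWFE). No replicate could be left out, since the profile analysed here is an average. No paired analysis was possible because the deposited columns carry no replicate.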
